A study of Mus musculus with 6 samples.

Results

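The control BMDMs (bone marrow-derived macrophages) polarized to M1 were compared with those polarized to M2. Members were the 14311 of 54446 counted genes with at least 10 counts in 1 of these 2 libraries, which come from the 6 libraries of the series. The cells were grown from bone marrow of young male BALB/c mice in medium with L929-conditioned medium, a source of CSF1. For M1, the cells received LPS at 50 ng/mL together with IFN-γ at 20 ng/mL for 24 h. For M2 they received IL4 at 20 ng/mL for 24 h, and M0 cells were left unpolarized. The other 3 libraries came from the same states with regorafenib (1 µM), a kinase inhibitor, added 1 h before polarization, and the control libraries carry the treatment label control. There was 1 library per condition, and nothing states that any of them are separate cultures of one condition. How many mice gave the cells of a library is not given in the sources used here.

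Macrophages take on different gene programs with the signals they receive. IFN-γ signals through JAK kinases, and LPS signals through Toll-like receptor 4 to NF-κB and interferon regulatory factors. Cells given both secrete inflammatory cytokines, make nitric oxide and present antigen. IL4 signals through STAT6, and cells given it take up sugars and lipids through lectins and scavenger receptors. M1 and M2 name these ends of a wider range of states.

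The M1 control library held 31498101 counts and the M2 control library 34898342, and the 6 libraries ranged from 25359309 to 34898342. TMM factors, which correct library sizes for composition, were 0.820 in M1 control and 1.05 in M2 control. The 10 genes with the most counts took 14.4% of the M1 library and 9.76% of the M2 library. Mitochondrial genes took 0.961% and 1.27%. Levels are given in CPM, a gene's count as a rate of the TMM-scaled library size. Differences are log2 ratios of the M1 to the M2 library with a 95% interval, which is the exact binomial interval of the gene's counts and covers counting error only. Most ratios in the text are followed by their interval, and a negative ratio means a higher level in M2. A gene was called where its ratio was at least 2-fold and its interval lay on that side of 0. With 1 library per state, no difference between these 2 libraries has a replicate check and no p-value is given for it.

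Of the 14311 genes, 2465 were called higher in M1 (17.2%) and 2688 higher in M2 (18.8%). In RNA from a whole culture, fewer cells expressing a gene and less of its RNA per cell cannot be told apart. The shares called are the background for the gene groups below. The median log2 ratio of all genes was -0.07, and 6387 genes (44.6%) differed by less than 1.5-fold. Large ratios were more often toward M1, with 1454 genes at least 4-fold higher in M1 and 1353 in M2, 603 and 443 at least 16-fold, and 281 and 127 at least 64-fold. With library totals in place of TMM, 1921 genes were called higher in M1 and 3801 in M2, which took the share of calls toward M1 from 47.8% to 33.6% and moved the median of all genes by -0.35. The genes called higher in M1 held 45.4% of the counts of the M1 library, 9.79% of the M2 library and 11.8% of M0. Those called higher in M2 held 26.3% of the M2 library, 5.69% of the M1 library and 22.8% of M0.

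**Figure D1:**
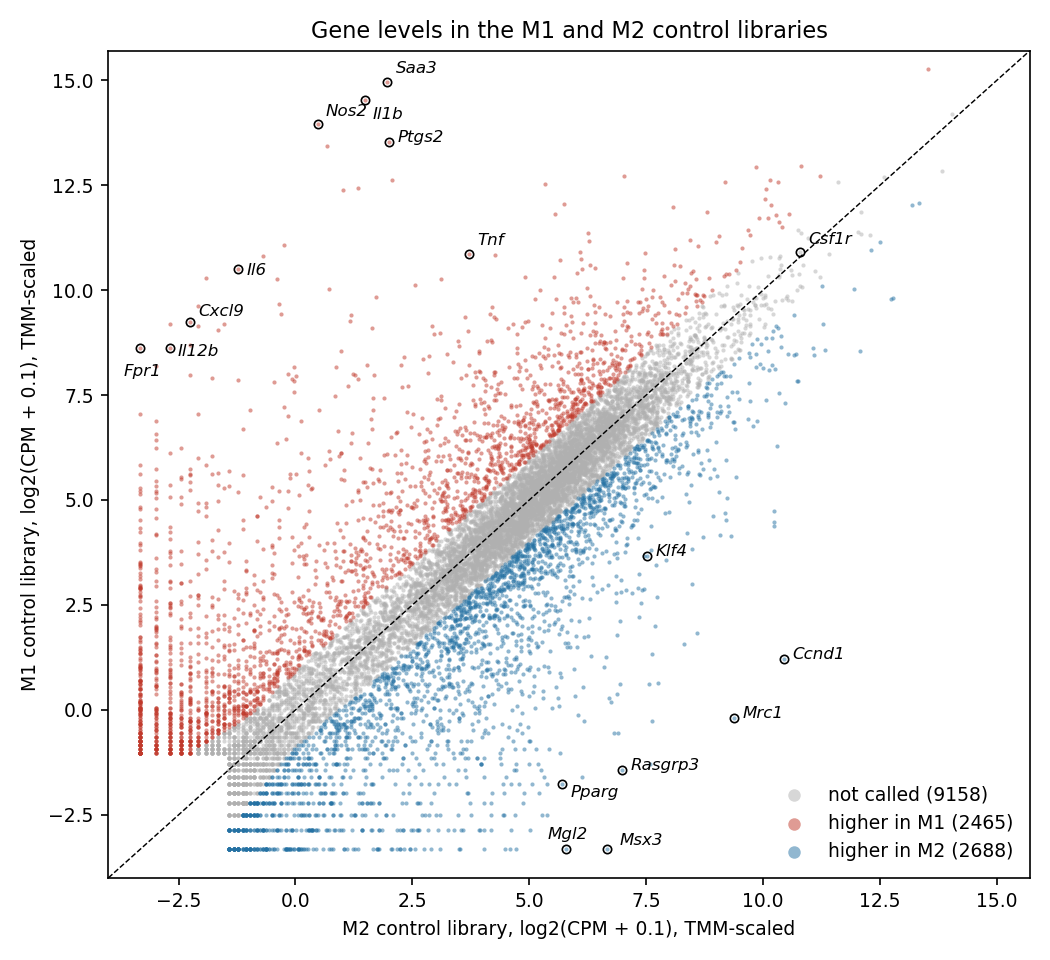
Level of each of the 14311 genes in the M1 control library (y axis) and the M2 control library (x axis), as log2 of CPM with 0.1 added, with 1 point per gene. Red points are the 2465 genes called higher in M1, blue points the 2688 called higher in M2 and grey points the 9158 others, and the dashed line marks equal levels. Saa3, Il1b, Nos2 and Ptgs2 lie near the top left, Msx3, Mgl2, Mrc1 and Ccnd1 at the lower right, and Csf1r beside the line.

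The genes farthest toward M1 included those of inflammatory enzymes, acute-phase proteins, interleukins and chemokines, with 2 formyl peptide receptors and a guanylate-binding GTPase. The first 15, ranked among protein-coding genes with at least 1000 counts by the end of the interval nearest 0, made up 8.93% of the M1 library, 0.00180% of the M2 library and 0.00421% of M0. Nos2, the inducible nitric oxide synthase (chr11:78920787-78960254, GRCm38), was at 15894 CPM in M1, 1.29 in M2 and 1.27 in M0. Its log2 ratio was 13.59 (13.18 to 14.04). Saa3, an acute-phase apolipoprotein (chr7:46711998-46715700), was at 31991 CPM in M1, 3.81 in M2 and 6.48 in M0, a ratio of 13.04 (12.80 to 13.29). For both genes M0 lay with M2 and M1 stood alone.

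The interleukin-1 genes Il1b and Il1a (chr2:129364570-129371139 and chr2:129299610-129309972) both belonged to the 15. Il1b was at 23594 CPM in M1, 2.68 in M2 and 3.09 in M0, and its ratio was 13.10 (12.82 to 13.40). Il1a was at 10968, 1.51 and 1.33 CPM, with a ratio of 12.83 (12.45 to 13.24). Il6 (12.10, 11.30 to 13.06) and Il12b, the p40 subunit of IL-12 and IL-23 (12.81, 10.95 to 15.85), had 12 and 2 counts in M2 against 37404 and 10147 in M1. Ptgs2, the inducible cyclooxygenase, was at 11721 CPM in M1 and 3.89 in M2 (11.56, 11.32 to 11.80). Lcn2, which binds bacterial siderophores, had a ratio of 12.89 (11.77 to 14.34), with 6 counts in M2.

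Neighbouring genes recurred among the 15. The neutrophil-attracting chemokine genes Cxcl3, Cxcl1 and Cxcl2 lie between positions 90786103 and 90905938 of chromosome 5. Their ratios were 11.76, 11.50 and 11.44. Cxcl9, a chemokine for T cells, lies farther along the same chromosome and had 15565 counts in M1, 4 in M2 and 0 in M0 (12.42, 11.07 to 14.30). The formyl peptide receptor genes Fpr1 and Fpr2 are next to each other on chromosome 17. Fpr1 had 10089 counts in M1 and 0 in M2, which is at least 4752-fold higher against a floor of 3 counts, and Fpr2 had 20337 and 5 (12.49, 11.27 to 14.11). Gbp4, a guanylate-binding protein, had 15210 counts in M1 and 2 in M2, so its ratio of 13.39 (11.54 to 16.44) has a wide interval. All 15 genes were at least 2-fold above M0 in M1, and 5 of them were also at least 2-fold lower in M2 than in M0.

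The 15 genes farthest toward M2 took a smaller share of their library. Together they made up 0.357% of the M2 library, 0.000619% of the M1 library and 0.191% of M0. Mrc1, the mannose receptor CD206 (chr2:14229392-14332057), was at 664 CPM in M2, 0.774 in M1 and 19.99 in M0. Its log2 ratio of M1 to M2 was -9.74 (-10.46 to -9.12). Msx3, a homeobox transcription factor (chr7:140046157-140049089), had 3693 counts in M2, 0 in M1 and 6 in M0, so M2 exceeded M1 by at least 871-fold. The lectin gene Mgl2 had 2017, 0 and 1 counts, at least 476-fold.

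For other genes of this end, M0 was close to M2 and M1 was far below both. Ccnd1, cyclin D1 (chr7:144929931-144939925), was at 1401 CPM in M2, 953 in M0 and 2.21 in M1, a ratio of -9.31 (-9.71 to -8.94). Rasgrp3, an exchange factor for Ras proteins, was at 127, 117 and 0.271 CPM (-8.87, -10.19 to -7.83). Cspg4, the NG2 proteoglycan, was at 119, 129.9 and 0.581 CPM (-7.68, -8.52 to -6.96). Tns1, the focal adhesion protein tensin 1, was at 112, 81.2 and 0.581 CPM (-7.59, -8.42 to -6.86). Pclaf and Ccna2, which act in DNA replication and the cell cycle, were higher in M0 than in M2. Pclaf had 2 counts in M1 (-9.06, -12.10 to -7.20) and Ccna2 had 6 (-8.24, -9.69 to -7.11).

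Others stood above M0 in M2. Pparg, the lipid-sensing nuclear receptor, was at 51.6 CPM in M2, 18.2 in M0 and 0.194 in M1 (-8.06, -9.68 to -6.83). Atp6v0d2, a subunit of the lysosomal proton pump, was at 216, 19.4 and 1.47 CPM (-7.20, -7.70 to -6.74). Fam198b was at 197, 64.4 and 0.735 CPM (-8.07, -8.80 to -7.42). Tmem26 had 6952 counts in M2, 418 in M0 and 8 in M1 (-9.26, -10.48 to -8.29). The claudin gene Cldn11 had 1412, 38 and 2 counts (-8.96, -12.01 to -7.11), and the ribonuclease gene Rnase2a 1181, 0 and 1 (-9.71, -15.01 to -7.23). Of the 15 genes, 9 were at least 2-fold above M0 in M2, and 13 were at least 2-fold below M0 in M1.

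**Figure D2:**
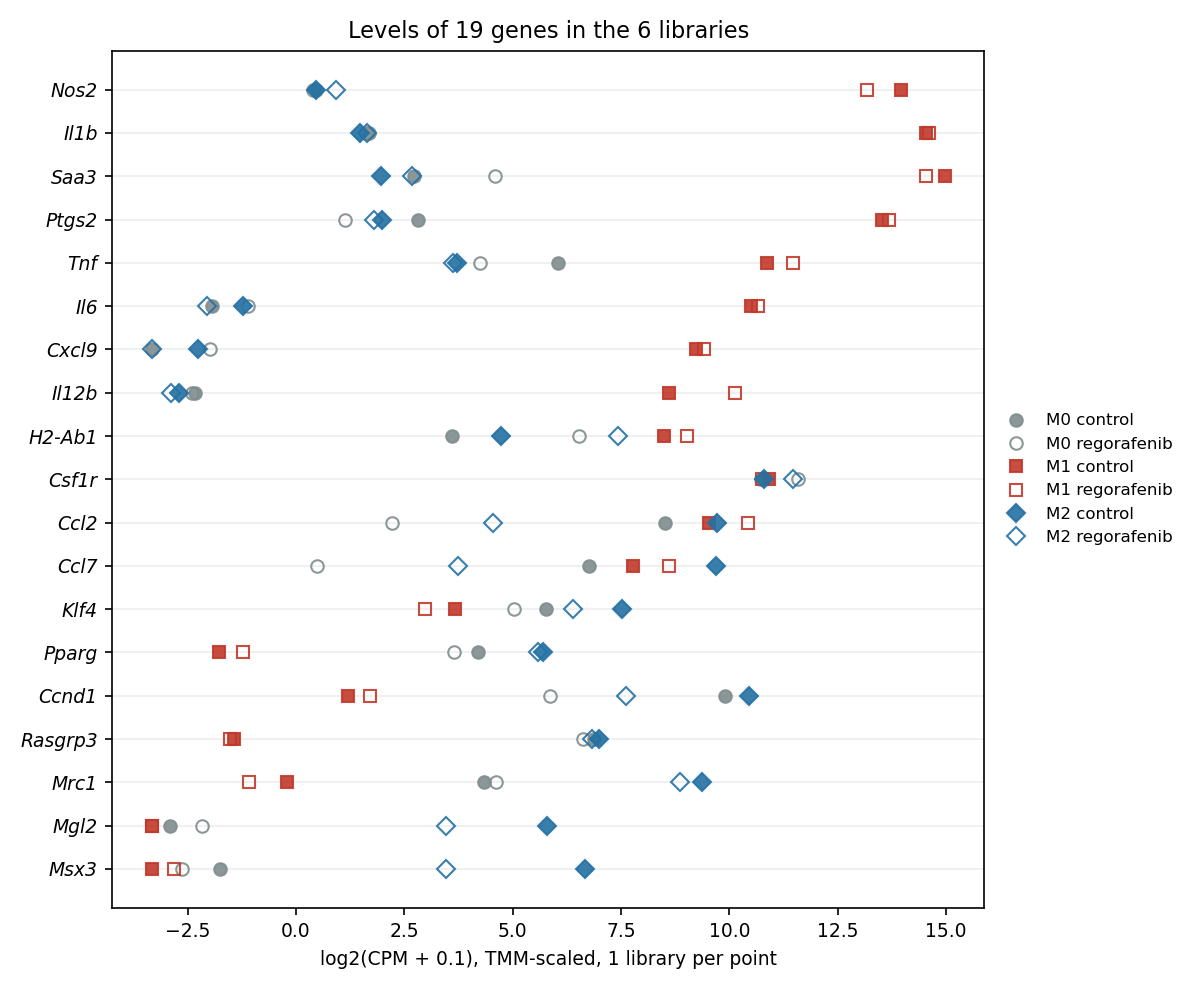
Level of 19 genes in each of the 6 libraries, as log2 of CPM with 0.1 added, with 1 symbol per library (circles M0, squares M1, diamonds M2, filled control, open regorafenib). For genes such as Nos2, Il6 and Cxcl9 both M1 libraries lie to the right of the other 4, for Mrc1 and Pparg both M2 libraries lie to the right, and for Ccl2 and Ccl7 the open M0 and M2 symbols lie far to the left of the filled ones.

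The M0 control library showed which of the polarized states stood apart from unpolarized cells. Both ratios to M0 use the same M0 library, so they are not independent of each other. Of the 2465 genes called higher in M1, 1686 (68.4%) were at least 2-fold above M0 in M1 without being 2-fold below it in M2. Another 406 (16.5%) were both, 135 (5.48%) were at least 2-fold below M0 in M2 alone, and 238 (9.66%) were neither. Of the 2688 genes called higher in M2, 175 (6.51%) were at least 2-fold above M0 in M2 alone, and 197 (7.33%) were both above it in M2 and below it in M1. The other 2010 (74.8%) that differed from M0 were at least 2-fold below it in M1 alone, and 306 (11.4%) were neither. In both sets most genes differed from M0 through the M1 library.

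**Figure D3:**
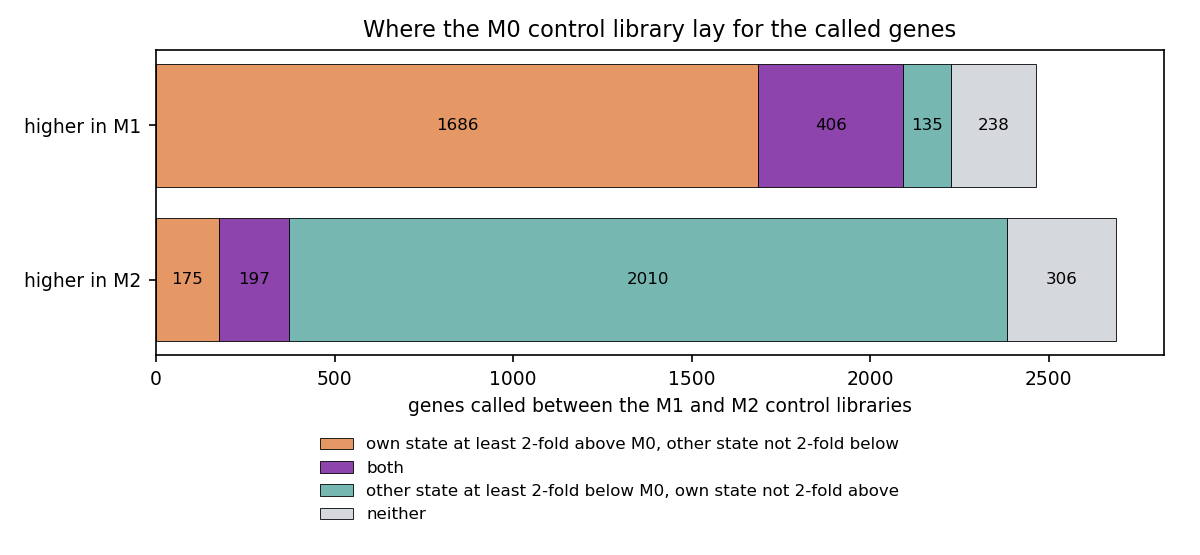
Number of genes called higher in M1 (upper bar) and higher in M2 (lower bar) between the control libraries, split by whether each state was at least 2-fold from the M0 control library. M1 alone stood 2-fold from M0 for 1686 genes of the upper bar and 2010 of the lower bar, and M2 alone for 135 and 175.

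Markers usually read for each state lay on the side of the label in most cases. Counts of list members called are over those with at least 10 counts in 1 of the 2 libraries. The counts of promoter motifs by list, given further below, are over all listed genes with a promoter window, whatever their counts. Of 23 M1 markers 22 passed this minimum, 20 of which were called higher in M1 and 0 higher in M2, against a background of 17.2% and 18.8% of all genes, and their median log2 ratio was 11.08 (10.87 with genes at 0 set to the floor). Tnf, encoding tumor necrosis factor, was at 1866 CPM in M1, 12.96 in M2 and 66.1 in M0 (7.17, 7.04 to 7.30). Il23a had 7 and 1 counts. The members not called were Cd80, a costimulatory ligand (-0.58, -0.73 to -0.44), and Irf5 (-0.32, -0.37 to -0.26). Of 32 IL-4 markers 29 passed, and 25 were called higher in M2 and 3 higher in M1, with a median of -5.49 (-5.10 with genes at 0 set to the floor). Retnla and Chil3, mouse markers of IL4 exposure, had 941 and 379 counts in M2 and 2 and 1 in M1. Igf1, a growth factor, was at 1199 CPM in M2, 352 in M0 and 26.7 in M1 (-5.49, -5.60 to -5.38). Egr2, a transcription factor, had a ratio of -5.10 (-5.50 to -4.73), Flt1, a VEGF receptor, -7.04 (-7.55 to -6.58), and Cdh1, E-cadherin, -7.97 (-10.25 to -6.42).

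The IL-4 markers that ran the other way were Il4ra, the IL4 receptor chain (3.14, 3.03 to 3.26), and the chemokines Ccl22 (3.41, 3.18 to 3.65) and Ccl17 (2.75, 1.16 to 4.76). Ccl22 was at 50.1 CPM in M1, 4.71 in M2 and 0.293 in M0. Cish was not called (0.66, 0.40 to 0.91), and Alox15, F13a1 and Ear2 had at most 8 counts in either library. Gene sets of M1 and M2 macrophages from the study's supplement gave like counts. Of 52 M1 genes 49 matched a gene name in use and passed, 44 of which were called higher in M1 and 1, Arhgap24, higher in M2 (median 4.67). Of 31 M2 genes 30 matched and passed, 25 of which were called higher in M2 and 2, Mmp9 (5.79, 5.003 to 6.71) and Cd83 (1.73, 1.58 to 1.88), higher in M1 (median -2.71).

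A test with more than 1 library per state was possible only across both drug conditions. edgeR's quasi-likelihood test of M1 against M2 over all 6 libraries, with drug as a term, had 2 residual degrees of freedom and 14110 genes. With 1 library for each state and drug, these degrees of freedom did not come from repeat cultures. They came from how unevenly a gene shifted with regorafenib across M0, M1 and M2. Passing or failing this test, here and for the gene lists below, is therefore not a replicate check. The test called 2671 genes higher in M1 (18.9%) and 2619 higher in M2 (18.6%) at an adjusted p under 0.05. Of the genes called between the control libraries and tested there, 1937 of 2306 passed in the M1 direction and 2115 of 2601 in the M2 direction. These counts are not independent of the control pair, whose libraries are part of the fit. Of the M1 markers 20 passed toward M1 and 0 toward M2, and of the IL-4 markers 3 and 24.

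**Figure D4:**
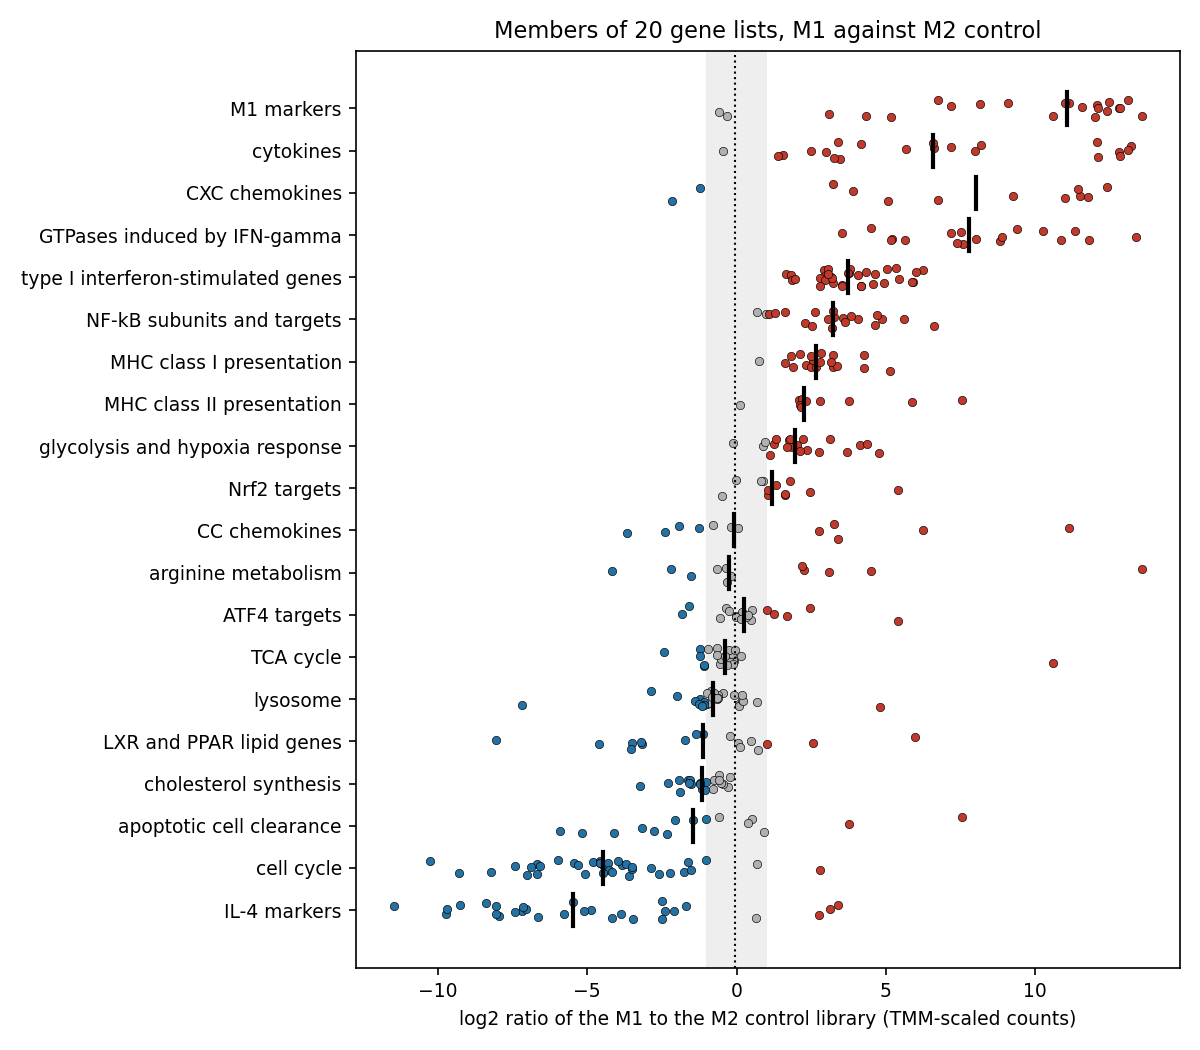
Log2 ratio of the M1 to the M2 control library for the members of 20 gene lists, with 1 point per gene that has at least 10 counts (red called higher in M1, blue called higher in M2, grey not called). Black bars are list medians, the dotted line is the median of all genes (-0.07), the grey band is 2-fold either way, and a count of 0 was replaced by 0.5. The interferon lists lie entirely to the right, the cell cycle and IL-4 lists almost entirely to the left, and CC chemokines and arginine metabolism spread both ways.

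Most cytokine genes were higher in M1. Of 23 cytokine genes 21 passed, 20 of which were called higher in M1 and 0 higher in M2, with a median of 6.59 (5.69 with genes at 0 set to the floor and 2.84 with 1 CPM added to both libraries), and 20 passed the edgeR test toward M1. Il12a, the p35 subunit of IL-12, had a ratio of 12.06 (9.58 to 17.37) and Il27, which acts on T cells, 8.001 (6.95 to 9.32). Csf3, the granulocyte growth factor G-CSF, had 3393 counts in M1 and 0 in M2, at least 1598-fold higher in M1. Il10 (3.39, 3.02 to 3.78) and the IL-1 receptor antagonist Il1rn (6.59, 6.48 to 6.70), which restrain inflammation, were called higher in M1. Tgfb1, which can do so too, had a ratio on the M2 side and was not called (-0.44, -0.50 to -0.39).

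Of 12 CXC chemokines, 10 were called higher in M1 and 2, Cxcl12 (-2.16, -4.56 to -0.40) and Cxcl14 (-1.24, -1.42 to -1.06), higher in M2. The median was 8.01 (7.59 with genes at 0 set to the floor and 4.96 with 1 CPM added). Cxcl12 has a wide interval, and of 11 CXC chemokines in the edgeR test 9 passed toward M1 and 1 toward M2. Cxcl10 was at 142 CPM in M1 and 1.31 in M2 (6.75, 6.34 to 7.20), and Cxcl16, which also binds oxidized lipoprotein, had a ratio of 3.90 (3.82 to 3.98). CC chemokines divided, with 5 of 12 called higher in M1, 4 higher in M2 and a median of -0.07. In the edgeR test 5 of the 12 passed toward M1 and 2 toward M2. Ccl5 was at 5513 CPM in M1, 2.44 in M2 and 2.44 in M0 (11.14, 10.84 to 11.46). Ccl3 (6.25, 6.18 to 6.32) and Ccl4 (3.28, 3.19 to 3.36) also lay toward M1. Ccl6 (-3.67, -3.91 to -3.44), Ccl24 (-2.41, -5.58 to -0.30), Ccl7 (-1.92, -1.96 to -1.88) and Ccl12 (-1.25, -1.43 to -1.07) lay toward M2. Ccl2, a chemokine for monocytes, was at 738 CPM in M1 and 839 in M2 (-0.18, -0.21 to -0.16), not called.

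All 33 measured type I interferon-stimulated genes were called higher in M1, with ratios from 1.67 to 6.24 and a median of 3.73, and all 33 passed the edgeR test. Isg15, a ubiquitin-like protein, was at 562 CPM in M1, 7.45 in M2 and 40.5 in M0 (6.24, 6.06 to 6.41). Ifit1, which binds foreign RNA, had a ratio of 5.91 (5.74 to 6.08) and Rsad2, the antiviral enzyme viperin, 5.02 (4.92 to 5.13). M1 lay above M0 and M2 below it by the list's medians. The median ratio to M0 was 2.19 in M1 and -1.54 in M2, and 24 of the 33 were at least 2-fold lower in M2 than in M0.

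The GTPases induced by IFN-γ, which act against intracellular microbes, showed the same pattern. All 18 were called higher in M1, from 3.53 to 13.39, with a median of 7.80 (7.54 with genes at 0 set to the floor). Their median ratio to M0 was 5.90 in M1 and -2.21 in M2, and all 18 were at least 2-fold lower in M2 than in M0. Gbp5, which takes part in inflammasome activation, was at 1228 CPM in M1, 0.657 in M2 and 3.74 in M0 (10.87, 10.29 to 11.51). Iigp1 had a ratio of 10.28 (9.23 to 11.59) and Irgm1 the lowest of the list, 3.53 (3.45 to 3.61). Tgtp1, Tgtp2, Gbp6 and Gbp10 share between 69.4% and 74.3% of their 100-base words with other genes, so reads may have been lost or assigned between copies and their values are uncertain.

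The promoters of these genes were read for motif letters. The windows were RefSeq sequences on GRCm38.p6, from 250 bases before to 50 bases after each gene's start, and 10103 of 14308 genes with a distinct symbol had one. The interferon element of type I interferon-stimulated genes (ISRE, GAAANNGAAA on either strand) was found in 8.46% of the 1643 genes called higher in M1 that had a window. It was found in 2.97% of the 1921 genes called higher in M2, 3.12% of the 4707 genes within 1.5-fold and 3.99% of all 27025 genes with a window. Of the 416 genes with M1 at least 16-fold higher, 11.3% held it. The letters lay in the windows of 14 of 24 type I interferon-stimulated genes, 10 of 11 GTPases and 5 of 16 MHC class I genes that had one. They lay in 1 of 17 windows of cytokine genes and 2 of 18 of M1 markers, and in 0 of 22 of IL-4 markers, 0 of 17 of NF-κB subunits and targets, 0 of 20 of glycolysis genes and 0 of 8 of MHC class II genes. These shares have no test, and a match of letters is not a bound site.

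The other motifs were read in the same windows. The element of genes induced by IFN-γ (GAS, TTCNNNGAA) was in 9.62% of windows of genes called higher in M1 and 8.02% of those called higher in M2, against 9.55% of all and 8.03% of the genes within 1.5-fold. The STAT6 letters (TTCNNNNGAA) were in 7.73% and 7.91%, against 8.01% of all and 6.12% within 1.5-fold. By list, they lay in 5 of 22 windows of IL-4 markers, 2 of 21 of the published M2 genes, 1 of 18 of M1 markers, 4 of 17 of cytokine genes, 4 of 20 of glycolysis genes and 5 of 24 of type I interferon-stimulated genes. The NF-κB letters (GGGANNTTCC) were in 3.16% and 1.77%, against 1.63% and 1.34%, and the AP-1 letters (TGANTCA) in 10.2% and 7.39%, against 8.97% and 5.12%. Among the 416 genes with M1 at least 16-fold higher the shares were 11.3% for GAS, 7.45% for STAT6, 3.37% for NF-κB and 16.1% for AP-1. Among the 305 genes with M2 at least 16-fold higher they were 6.89%, 11.5%, 1.97% and 9.84%, and 3.61% for ISRE. None of these shares was tested. Motifs were searched on both strands and may overlap one another.

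The windows below are those of the highest-ranked genes of each end that held ISRE or GAS letters (toward M1) or STAT6 letters (toward M2), and they were chosen by those matches. Each shows 250 bases before the start, 5′ to 3′, with the matches in capitals. Saa3, at chr7:46715677-46715926 on the minus strand, has the ISRE letters from -125 to -116. Fpr2, at chr17:17887574-17887823 on the plus strand, has the GAS letters from -77 to -69. Gbp5, at chr3:142496684-142496933 on the plus strand, has ISRE letters from -165 to -156 and GAS letters from -245 to -237 and from -52 to -44.
Saa3: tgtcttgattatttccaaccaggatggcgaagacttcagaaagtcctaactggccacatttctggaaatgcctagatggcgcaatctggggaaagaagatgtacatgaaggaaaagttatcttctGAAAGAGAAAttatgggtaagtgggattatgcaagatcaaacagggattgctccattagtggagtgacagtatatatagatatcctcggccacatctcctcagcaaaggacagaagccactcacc
Fpr2: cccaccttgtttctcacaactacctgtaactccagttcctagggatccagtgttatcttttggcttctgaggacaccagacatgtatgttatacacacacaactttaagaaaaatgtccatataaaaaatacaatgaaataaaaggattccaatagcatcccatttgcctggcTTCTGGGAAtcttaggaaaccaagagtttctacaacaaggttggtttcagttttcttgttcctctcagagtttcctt
Gbp5: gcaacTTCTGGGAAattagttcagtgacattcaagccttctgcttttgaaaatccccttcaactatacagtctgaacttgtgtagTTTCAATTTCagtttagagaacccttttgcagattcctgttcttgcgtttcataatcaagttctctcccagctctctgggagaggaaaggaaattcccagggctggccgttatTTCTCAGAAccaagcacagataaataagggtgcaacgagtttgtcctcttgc

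Toward M2, the window of Tmem26 at chr10:68723496-68723745 on the plus strand holds the STAT6 letters from -227 to -218 and from -41 to -32. That of Galnt9, a glycosyltransferase gene, at chr5:110603255-110603504 on the plus strand, holds them from -124 to -115. Galnt9 had 1078 counts in M2, 4 in M1 and 265 in M0. The third gene by rank was Cbr2, whose match lies after the start and is not shown.
Tmem26: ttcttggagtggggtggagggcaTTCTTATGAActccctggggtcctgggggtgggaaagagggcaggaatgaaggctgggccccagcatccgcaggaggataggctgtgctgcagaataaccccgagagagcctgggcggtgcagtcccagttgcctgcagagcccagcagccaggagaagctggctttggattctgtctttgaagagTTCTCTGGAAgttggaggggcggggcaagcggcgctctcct
Galnt9: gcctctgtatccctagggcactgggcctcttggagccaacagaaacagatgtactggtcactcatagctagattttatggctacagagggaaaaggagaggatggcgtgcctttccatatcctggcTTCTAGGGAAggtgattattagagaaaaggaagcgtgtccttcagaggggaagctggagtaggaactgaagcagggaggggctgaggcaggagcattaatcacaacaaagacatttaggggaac

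Among the transcription factors that carry these signals, members divided by family. Of 9 interferon regulatory factors 8 passed, of which 3 were called higher in M1, 1 higher in M2 and 4 neither (median 0.41). Irf7 (4.64, 4.58 to 4.70) and Irf1 (4.33, 4.24 to 4.42) drive interferon responses, and Irf4, linked to IL4 responses, lay the other way (-5.15, -5.94 to -4.47). Of 21 NF-κB subunits and targets, 19 were called higher in M1 and 0 higher in M2 (median 3.24), with Nfkbiz at 6.603 (6.30 to 6.92), the subunit Nfkb2 at 3.20 (3.13 to 3.28) and the mitochondrial superoxide dismutase Sod2 at 4.89 (4.83 to 4.94). Rel (0.70, 0.61 to 0.79) and Nfkbid (0.99, 0.81 to 1.17) were not called.

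Of 21 JAK-STAT and SOCS genes, 12 were called higher in M1 and 2, Socs2 and Socs6, higher in M2 (median 1.07). The feedback inhibitors Socs3 and Socs1 had ratios of 8.16 (7.90 to 8.44) and 3.65 (3.53 to 3.78), and the kinase gene Jak2 3.85 (3.78 to 3.92). Stat6, which IL4 activates, was level at -0.02 (-0.06 to 0.01). Il13ra1, which pairs with Il4ra in the shared receptor of IL4 and IL13, was higher in M1 (6.83, 6.29 to 7.42).

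KLF and EGR factors had 5 of 11 members called higher in M2 and 3 higher in M1 (median -0.28). Klf4, a transcription factor at the center of the study's pathway, was at 184 CPM in M2, 54.6 in M0 and 12.6 in M1 (-3.87, -4.03 to -3.71). It was above M0 in M2 and below M0 in M1. Klf9 (-2.88, -3.15 to -2.61), Klf2 (-2.85, -3.03 to -2.67) and Klf10 (-2.10, -2.24 to -1.95) lay on the same side, and the immediate early gene Egr1 (3.88, 3.26 to 4.57) on the other. Creb1 and Mapk14, which encode the kinase-regulated factor CREB and p38α of the study's pathway, were not called, at -0.01 (-0.12 to 0.09) and -0.31 (-0.37 to -0.25).

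Of 14 macrophage transcription factors 4 were called higher in M2, among them Pparg, Cebpa (-4.59, -4.81 to -4.38) and the lysosomal regulator Tfeb (-2.35, -2.52 to -2.19). Cebpb (2.36, 2.27 to 2.45) was the 1 called higher in M1, and Spi1, the master factor PU.1 of the lineage, was level (-0.19, -0.23 to -0.15). The median of the list was -0.41. Of 11 AP-1 factors 6 were called higher in M1 and 2 higher in M2 (median 1.003). Batf2 (4.30, 4.09 to 4.52) and Batf (3.99, 3.69 to 4.30) were the farthest toward M1, and Batf3 (-2.16, -3.06 to -1.37) and Jun (-1.34, -1.40 to -1.27) lay toward M2.

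Antigen presentation genes of both classes were mostly higher in M1. Of 19 MHC class I genes, 18 were called higher in M1 and 0 higher in M2, with a median of 2.67, and 19 passed the edgeR test. B2m, the invariant light chain, was at 5439 CPM in M1, 1072 in M2 and 1096 in M0 (2.34, 2.33 to 2.36). The peptide transporter Tap1 had a ratio of 4.28 (4.19 to 4.38) and Nlrc5, the transactivator of class I genes, 3.38 (3.29 to 3.47). Of 11 class II genes 10 passed, and 9 were called higher in M1, with a median of 2.25, but 6 passed the edgeR test. H2-Ab1 was at 363 CPM in M1, 26.5 in M2 and 12.0 in M0 (3.78, 3.68 to 3.87). The control-pair ratios of H2-Aa and the transactivator Ciita were 2.13 (2.04 to 2.22) and 2.18 (1.92 to 2.45). The edgeR test across both drug conditions does not test these ratios. Its log2 ratio was 2.89 for H2-Ab1 (adjusted p = 0.0163) and 1.38 for H2-Aa (adjusted p = 0.0783). H2-Aa and Ciita (adjusted p = 0.448) did not pass it.

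With regorafenib the class II ratios were smaller. Of the same 10 genes 4 were called higher in the M1 than in the M2 regorafenib library, and their median was 0.82. H2-Ab1 was at 516 CPM in M1 and 172 in M2 with regorafenib (1.58, 1.53 to 1.63). Both levels were above those of the control libraries. For class I the median with regorafenib was 2.54. The difference between the pairs was not tested, since each has 1 library per state. Reads from BALB/c cells were mapped to a C57BL/6 genome, which differs at the polymorphic H2 genes, and the effect on levels was not tested.

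Ligands and receptors that face T cells and microbes were mixed. Of 14 costimulatory and checkpoint genes 7 were called higher in M1 and 2 higher in M2 (median 1.003). Cd40 (5.61, 5.43 to 5.79), Cd86 (5.16, 4.68 to 5.70), Cd274, the PD-1 ligand PD-L1 (5.07, 5.004 to 5.14), and Icosl (3.95, 3.75 to 4.15) lay toward M1. Pdcd1lg2, the other PD-1 ligand (-2.50, -4.02 to -1.27), and the inhibitory receptor gene Cd200r1 (-4.27, -4.44 to -4.09) lay toward M2. Of 15 Toll-like receptor genes and partners 12 passed (median 1.32), and 7 were called higher in M1, among them Tlr2 (4.16, 4.03 to 4.28) and the LPS co-receptor Cd14 (3.89, 3.86 to 3.92). Tlr4, the LPS receptor, lay toward M2 (-1.82, -1.89 to -1.75), with Tlr8 (-2.78, -2.89 to -2.68) and Tlr13 (-1.85, -1.90 to -1.79).

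Scavenger receptors and lectins, often taken as M2 genes, had 9 of 19 members called higher in M2 and 6 higher in M1 (median -0.75). Cd36, which takes up fatty acids and oxidized lipoprotein, was at 1420.3 CPM in M2, 271 in M0 and 158 in M1 (-3.17, -3.21 to -3.12). Marco, a scavenger receptor for bacteria, had 7506 counts in M1, 1 in M2 and 10 in M0 (13.37, 10.89 to 18.68). The lectin Clec4e, which senses mycobacterial glycolipid, also lay toward M1 (7.20, 7.12 to 7.27). Of 15 genes for the clearance of apoptotic cells, 9 were called higher in M2 and 2 higher in M1, with a median of -1.46. The bridging ligands Gas6 (-5.16, -5.44 to -4.90) and Pros1 (-4.10, -4.47 to -3.74) and the integrin Itgb3 (-5.91, -6.92 to -5.07) lay toward M2, and the receptor Mertk (3.76, 3.59 to 3.94) and the phosphatidylserine receptor Timd4 (7.55, 6.66 to 8.61) toward M1. Of 5 Fc gamma receptor genes 4 were called higher in M1, led by Fcgr4 (3.98, 3.74 to 4.22), and Fcgr3 (-1.03, -1.07 to -0.98) higher in M2. The median was 1.48.

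Growth factors and matrix genes did not follow one state either, with 7 called each way of 19 that passed among 20 (median -0.44). Vegfa, the angiogenic growth factor, was at 235 CPM in M1, 0.849 in M2 and 4.36 in M0 (8.11, 7.61 to 8.67). The membrane protease Mmp14 (11.22, 10.30 to 12.35) and Thbs1, thrombospondin 1 (6.84, 6.53 to 7.17), lay with it. Pdgfc (-7.12, -8.44 to -6.08), the protease inhibitor Timp2 (-5.84, -5.97 to -5.72) and Spp1, osteopontin (-2.23, -2.26 to -2.20), lay toward M2.

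Arginine can be turned to nitric oxide or to ornithine and polyamines, and 5 of 12 genes of its metabolism were called higher in M1 and 3 higher in M2 (median -0.25). On the nitric oxide side with Nos2 were the arginine transporter Slc7a2, at 7821 CPM in M1 and 923 in M2 (3.08, 3.07 to 3.10), the recycling enzyme Ass1 (2.28, 2.22 to 2.33) and Gch1, which makes the cofactor of nitric oxide synthase (2.20, 2.11 to 2.29). Toward M2 were the polyamine synthases Srm (-1.54, -1.72 to -1.36) and Sms (-2.18, -2.31 to -2.05), and Odc1, which makes putrescine, was not called (-0.36, -0.50 to -0.23).

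Of 20 glycolysis and hypoxia genes 17 were called higher in M1 and 0 higher in M2, with a median of 1.94, and 19 passed the edgeR test. The glucose transporter Slc2a1 was at 1439 CPM in M1, 70.1 in M2 and 104 in M0 (4.36, 4.30 to 4.42). The lactate exporter Slc16a3 (4.78, 4.70 to 4.86), the regulator Pfkfb3 (4.12, 4.07 to 4.17) and the transcription factor Hif1a (2.03, 1.98 to 2.09) lay with it. Their median ratio to M0 was 1.73 in M1. Pgk1 and Pgam1 share over 50% of their 100-base words with other genes and are uncertain.

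Of 21 genes of the TCA cycle and its branches 15 were not called, 5 were called higher in M2 and 1 higher in M1 (median -0.37). That 1 was Acod1, which makes itaconate from a TCA intermediate, at 6333 CPM in M1, 4.11 in M2 and 35.3 in M0 (10.59, 10.36 to 10.83). Idh1, a cytosolic isocitrate dehydrogenase, was the farthest toward M2 (-2.44, -2.52 to -2.36). Of 12 Nrf2 targets 8 were called higher in M1 and 0 higher in M2 (median 1.20), with the cystine transporter gene Slc7a11 at 5.40 (5.29 to 5.52) and Hmox1, heme oxygenase 1, at 1.80 (1.78 to 1.82). Slc7a11 is also an ATF4 target, and of 18 of those 5 were called higher in M1 and 2, the serine and glycine enzymes Psat1 and Shmt2, higher in M2 (median 0.24). Of 6 NADPH oxidase genes 2 were called higher in M1 (median 0.90). Cybb, the catalytic subunit, was at 6713 CPM in M1, 130.3 in M2 and 294 in M0 (5.69, 5.65 to 5.73).

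Lipid genes lay mostly toward M2. Of 21 cholesterol synthesis genes 13 were called higher in M2 and 0 higher in M1, with a median of -1.14, and Dhcr7, the last enzyme of one branch, had the largest ratio (-3.24, -3.54 to -2.96). Of 17 LXR and PPAR lipid genes 9 were called higher in M2 and 3 higher in M1 (median -1.12). Lpl, lipoprotein lipase, was at 4305 CPM in M2, 2949.7 in M0 and 375 in M1 (-3.52, -3.55 to -3.49). The fatty acid-binding protein genes Fabp4 (-4.59, -5.05 to -4.17) and Fabp5 (-3.21, -3.31 to -3.11) lay with it, and the cholesterol exporter Abca1 (5.98, 5.76 to 6.20) and the oxysterol enzyme Ch25h (2.56, 2.44 to 2.69) lay toward M1.

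Of 12 prostaglandin and leukotriene enzymes 10 passed, of which 6 were called higher in M2 and 2 higher in M1 (median -1.72). The inducible enzymes Ptgs2 and Ptges (8.17, 7.85 to 8.51), which act in sequence toward prostaglandin E2, were the M1 members. Ptgs1, the constitutive cyclooxygenase (-5.77, -6.34 to -5.25), and the leukotriene enzymes Alox5 (-4.94, -5.48 to -4.44) and Ltc4s (-3.83, -4.65 to -3.11) were higher in M2. Of 28 lysosomal genes 18 were not called, 9 were called higher in M2 and 1, the protease gene Ctsc (4.80, 4.73 to 4.87), higher in M1. Lipa, the lysosomal acid lipase, had a ratio of -2.88 (-2.92 to -2.84). The median was -0.80, and 16 of the genes passed the edgeR test toward M2.

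Cell cycle genes were lower in M1 than in M0 and M2. Of 37 cell cycle genes 35 were called higher in M2 and 1 higher in M1, with a median of -4.47, and 32 passed the edgeR test toward M2. Top2a, a topoisomerase of dividing cells, was at 169.8 CPM in M2, 482 in M0 and 7.16 in M1 (-4.57, -4.79 to -4.36). Cenpf, a centromere protein, had 875 counts in M2, 1796 in M0 and 0 in M1. M0 was the highest of the control libraries for most members. Compared with M0, 32 were at least 2-fold lower in M2 and 35 at least 2-fold lower in M1. The median ratio to M0 was -5.65 in M1 and -1.29 in M2. Mki67 had a smaller ratio of -1.75 (-1.83 to -1.67) and did not pass the edgeR test (adjusted p = 0.140). Among the D-type cyclins, Ccnd1 was higher in M2, Ccnd2 (2.79, 2.62 to 2.96) higher in M1 and Ccnd3 not called (0.68, 0.60 to 0.75).

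Markers of the cell type were present in both libraries. Of 10 macrophage genes, 4 were called higher in M1 and 2 higher in M2 (median 0.29). Their summed level was 31902 CPM in M1 and 22582 in M2. Csf1r, the CSF1 receptor, was at 1916 CPM in M1, 1767 in M2 and 1704 in M0 (0.12, 0.10 to 0.13), and Lyz2 had a ratio of 0.16 (0.15 to 0.16). Adgre1, which encodes F4/80, was higher in M1 (2.27, 2.25 to 2.28), and Cd68 was higher in M2 (-2.21, -2.24 to -2.17).

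Markers of other cells were mostly low or absent, and the neutrophil list had the highest summed level. Of 12 neutrophil genes 4 passed the minimum, with a summed level over the list of 110.4 CPM in M0, 209.8 in M1 and 98.8 in M2, and Ly6g, Elane, Prtn3 and Retnlg were at 0 in both polarized libraries. Of 8 dendritic cell genes 3 passed, led by Ccr7 (7.78, 6.56 to 9.41), with 32.1 CPM in M1 and 0.876 in M2. Fibroblast markers came to 24.8 and 10.02 CPM, with 4 of 8 passing. None of 10 T and B cell genes, none of 6 red cell genes and 1 of 7 mast cell genes, Kit (4.63, 2.67 to 7.73), passed. All members of these lists that were called lay toward M1, namely 3 of the 4 neutrophil genes, 2 of the 3 dendritic cell genes, 2 of the 4 fibroblast genes and Kit. Members with few counts entered only through a library where they reached 10 counts, so their shared direction is not read as a result. Without that minimum the median of dendritic cell markers was -0.24 against 5.67. The part of other cell types in the differences was not tested.

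Genes outside the protein-coding set took 556 of the 2465 calls toward M1 and 336 of the 2688 toward M2. Protein-coding genes were 12097 of the 14311 and took the other 1909 and 2352 calls. Of all genes, 17.2% and 18.8% were called. AW112010 had 20927 counts in M1 and 25 in M2 (10.21, 9.65 to 10.84). Mir155hg, the host transcript of the inflammatory miRNA miR-155, had 1476 counts in M1 and 0 in M2, at least 695-fold higher. Gm19026 (10.22, 7.74 to 15.53) and Gm16685 (9.96, 7.48 to 15.27) followed. Toward M2 were Gm4610, with 410 counts against 0 (at least 96.7-fold), and Gm14461 (-5.63, -6.64 to -4.78). Gm8989 and Gm11223 share most of their sequence with other genes and are uncertain. Cxcl11 and Clec7a, annotated as polymorphic pseudogenes in this reference genome, fell in this set too, with 731 against 0 counts and a ratio of -4.87 (-5.12 to -4.64). Exons on the opposite strand overlap 41.7% of Cxcl11, and which strand was counted is not stated.

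The same genes were read in the regorafenib libraries, which share no library with the control pair. Of 2291 genes called higher in M1 that had 10 counts there, 2207 (96.3%) had the same direction and 1743 (76.1%) were called, against 15.6% of all genes in both pairs. Of 2541 called higher in M2, 2475 (97.4%) had the same direction and 1929 (75.9%) were called, against 18.5%. Across the 13700 genes in both pairs, Pearson's r of the log2 ratios was 0.92 and Spearman's rho 0.83. Genes are not independent replicates, and all libraries were prepared in one study.

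The exceptions were few. In all 22 genes were called in opposite directions, 13 of those higher in control M1 and 9 of those higher in control M2. The chemokine genes Ccl2, Ccl7 and Ccl12 lie together at chr11:82035571-82037453, chr11:82045712-82047525 and chr11:82101845-82103400. Ccl7 was at 219 CPM in M1 and 829.6 in M2 among controls and at 391 and 13.2 with regorafenib, so its ratio went from -1.92 to 4.89 (4.74 to 5.05). Ccl12 went from -1.25 to 4.80 (4.03 to 5.68). Ccl2 went from -0.18 to 5.90 (5.79 to 6.02), with 1389 CPM in M1 and 23.2 in M2. For these genes the M2 and the M0 library were both lower with the drug. In M0 Ccl7 was at 108 CPM in the control and 1.30 with regorafenib and Ccl2 at 367 and 4.52, and Ccl12 had 93 counts and 1. Cst7, a cystatin, had 148 and 475 counts in M1 and M2 among controls and 419 and 96 with regorafenib. Entpd1, the ectonucleotidase CD39, had the reverse pattern. The difference between the pairs has no replicate check.

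**Figure D5:**
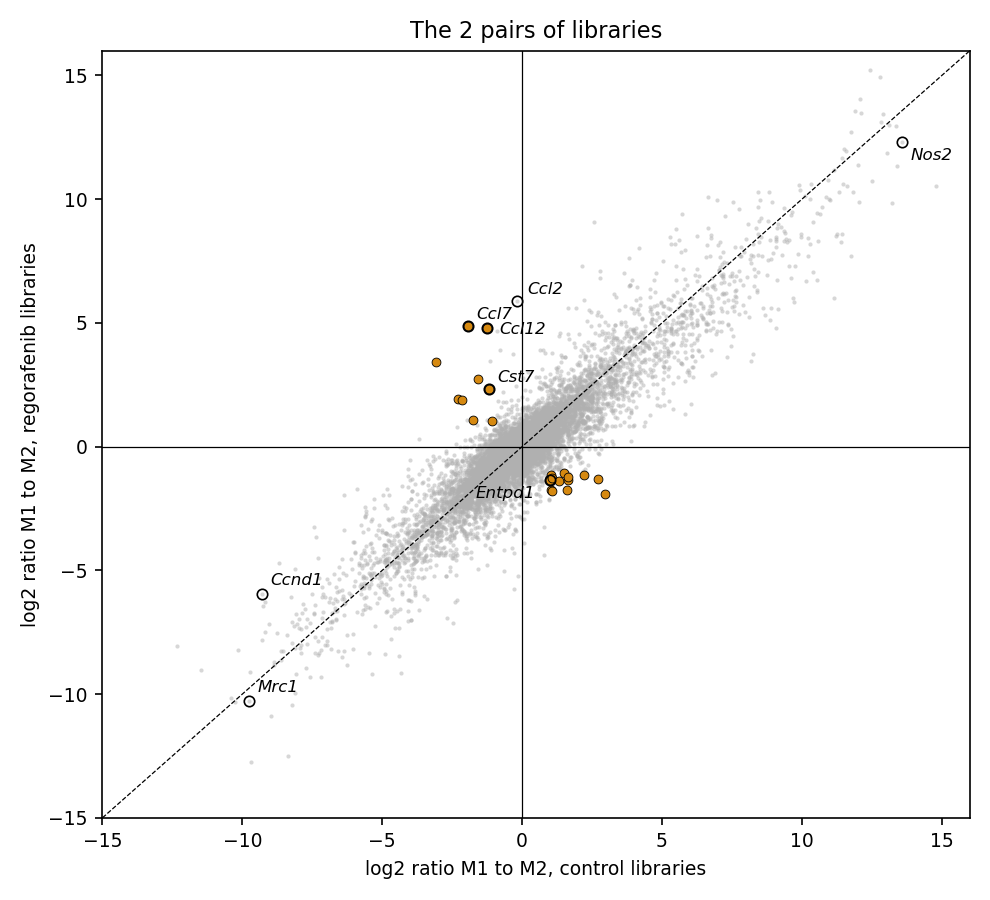
Log2 ratio of M1 to M2 in the regorafenib libraries (y axis) against the control libraries (x axis), with 1 point per gene with at least 10 counts in both pairs (13700 genes) and a dashed line of equal ratios. Orange points are the 22 genes called in opposite directions, and most other points lie in the quadrants where both ratios have the same sign. Ccl2 and Ccl7 lie high above the line.

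Many abundant genes did not separate the states. The 5 protein-coding genes with the most counts among those under 1.1-fold were mt-Co1 (0.12, 0.11 to 0.13), Csf1r, Cfl1, the actin-binding protein cofilin (0.13, 0.11 to 0.15), mt-Nd5 (0.02, 0.00 to 0.04) and Akr1a1 (-0.03, -0.05 to -0.01). The share of genes called differed with depth. Among genes with at most 30 counts over both libraries, 28.0% were called higher in M1 and 21.2% higher in M2, and the median width of the intervals that had both ends was 3.29 on the log2 scale. From 30 to 100 counts the shares were 26.9% and 22.3% and the width 1.94, and from 100 to 1000 counts 15.65% and 25.2% and the width 0.676, so that here more genes were called toward M2. From 1000 to 10000 counts the shares were 12.0% and 14.0% and the width 0.233. Above 10000 counts they were 24.6% and 16.8% and the width 0.0983. At the 2-fold threshold, among protein-coding genes with at least 1000 counts, Npepps (1.0005) was the last gene called higher in M1 and Tuba1a (0.9998) the first not called, and Mbp (-1.0014) and Dot1l (-0.9992) were their counterparts toward M2.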

How the data were processed

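RNA of 6 BMDM samples was sequenced with TruSeq Stranded mRNA libraries, 1 per condition. The authors deposited whole-number counts per gene that were not normalized. Per the submitters' processing notes and the paper's methods, cutadapt 2.4 trimmed the reads, and STAR 2.7.2a aligned them to GRCm38 and counted them on a Gencode annotation. Which strand column was taken is not given in the sources used here. Of 54446 gene IDs, 53229 matched Gencode M21 with their version and 1180 without it, and 37 had no name.

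Counts were scaled with TMM over the 6 libraries (edgeR 4.0.16, R 4.3.3), with factors from 0.820 to 1.12. The log2 ratio of M1 to M2 was taken with a count of 0 replaced by 0.5, and its 95% interval comes from an exact binomial distribution of the gene's M1 count given the sum of both counts. A gene at 0 in a library has a fold bound against 3 counts. edgeR's quasi-likelihood test used state and drug as terms over the 6 libraries, with Benjamini-Hochberg adjustment, and DESeq2 1.42.0 was an alternative. The fits and the intervals were tested on simulated data. Python 3.11.15, numpy 2.4.6, pandas 2.3.3, scipy 1.17.1 and matplotlib 3.10.9 were used. The comparison and the 41 gene lists were chosen with earlier results of these data known.

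Named genes were the 15 farthest each way by the end of the interval nearest 0 among protein-coding genes with at least 1000 counts, the markers and pathway genes of the study, members of lists where described, the 5 non-coding genes farthest each way with at least 100 counts, the 5 most abundant coding genes under 1.1-fold, and the 5 called genes with the largest opposite ratio in the regorafenib pair. Shared sequence was judged for 632 named or listed genes by 100-base words found in another gene, and 16 shared over 50%. Alternatives were other scalings, count minimums, folds and an added CPM of 1. Counts of calls and list members cover all genes, and the values of some named genes are not reported here.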

Additional observations from a re-analysis of the deposited data

Results flagged for a closer look

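For 4 genes the libraries of the 2 pairs lay on opposite sides, so the ratio of M1 to M2 differed between the control and the regorafenib pair. Each value compares 1 library with 1 library, and the difference between the pairs was not tested. The log2 ratio of Ccl7 was -1.92 in the control pair and 4.89 in the regorafenib pair. Its neighbour Ccl12 was at -1.25 and 4.80. For Cst7, which encodes cystatin F, the ratios were -1.18 and 2.34. Entpd1 was at 1.01 and -1.33, with M1 the higher state among controls and the lower one with regorafenib. They have large opposite ratios among the 61 genes that were called in the control pair, had the opposite sign in the regorafenib pair and reached 100 counts in both.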

How the results depend on the processing

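No paired analysis was possible because each group holds 1 library and the labels give no shared replicate numbers. TMM on the 2 control libraries gave the same calls, 2465 and 2688. Median-of-ratios factors gave 2613 higher in M1 and 2545 in M2, upper quartile scaling 2691 and 2466, and 1 added CPM 1760 and 1974. A minimum of 100 counts left 1595 calls toward M1, 1122 of them 2-fold above M0 in M1 alone, because fewer genes were tested. A 4-fold threshold left by construction 1454 and 1353 calls, 987 of them above M0 in M1 alone and 1063 below M0 in M1 alone, with 1150 M2 calls repeated in the regorafenib pair. At that fold 10.6% of M1 windows held ISRE letters and 9.54% of M2 windows STAT6 letters, and the cause was not tested. Library totals put 3049 genes below M0 in M1 alone in place of 2010. Of 581 named or listed genes, the most to gain or lose a call under a scaling were 23 and 22, with library totals, and 0 of those called changed direction. Under a scaling 41 changed sign, 0 of them with a reported ratio of 2-fold or more. With library totals, 6 of 39 list medians fell under 2-fold and 2 passed it. With 1 CPM added, 3 fell under 2-fold, those of AP-1 factors (1.003 to 0.43), costimulatory genes (1.003 to 0.9995) and fibroblast markers (1.05 to 0.84). Without a count minimum the fibroblast (0.63) and Toll-like receptor (1.32 to 0.82) medians fell under it. At 100 counts the median of LXR and PPAR lipid genes fell under it (-1.12 to -0.67), that of KLF and EGR factors passed it (-0.28 to -1.19), and those of costimulatory genes and fibroblast markers rose to 1.59 and 3.44. Other medians that moved by over 1.5 times with 1 CPM added were those of cytokines (6.59 to 2.84), CXC chemokines (8.01 to 4.96) and neutrophil (3.83 to 2.34), dendritic cell (5.67 to 1.22) and mast cell markers (4.63 to 1.16). The neutrophil median was 1.96 without a count minimum. Of medians at least 2-fold from 0, 1 changed sign, that of dendritic cell markers without a count minimum (-0.24 against 5.67), where members with few counts enter. Of medians nearer 0, 3 changed sign, those of ATF4 targets (0.24 to -0.11) and macrophage identity genes (0.29 to -0.06) with library totals and of CC chemokines (-0.07 to 0.02) with upper quartile scaling. edgeR called between 2315 and 2783 genes toward M1 and between 2227 and 2956 toward M2 under its alternatives, DESeq2 included. With few counts the intervals are wide, and differences under 2-fold could not be called.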
